A study of Homo sapiens with 6 samples.

Results

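Aminoacyl-tRNA synthetases are the enzymes that attach each amino acid to its tRNA. The 37 genes described here are the listed members of that enzyme family, taken by gene symbol from the authors' annotation on the reference chromosomes, out of 63152 genes counted. Of these, 21 encode cytosolic enzymes and 16, whose symbols end in the suffix 2, encode mitochondrial ones. The cytosolic set includes TARSL2, a threonyl-tRNA synthetase-like gene, and GARS and KARS, single genes that each supply both compartments. All 37 had enough counts to be tested.

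The libraries come from A549, an established line from a human lung adenocarcinoma. Cells in 1 group were reverse transfected with a pool of siRNAs against RPS19, a gene for a protein in the ribosome's small subunit (siRPS19), and cells in the other with a non-targeting siRNA (siOTP), both at 10 nM. RNA was taken after 72 hours from 3 biological replicates per group and read as 50-base pairs. The RPS19 pool and the control siRNA are of different product lines (siGENOME SMARTpool and ON-TARGETplus), and only 1 pool was used, so the reagent cannot be told apart from the target. These libraries measure mRNA and not enzyme or charged tRNA.

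A cell uses one synthetase, or one pair of subunits, for each amino acid in the cytosol, and a second set, encoded in the nucleus and imported, inside mitochondria. Mitochondria make their glutaminyl-tRNA with an amidotransferase. A group of cytosolic synthetases is held together in the multisynthetase complex by scaffold proteins. When amino acids run short, uncharged tRNA activates the kinase GCN2, and the transcription factor ATF4 is then made and can activate a number of synthetase genes.

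Counts on genes totalled 20814110 to 23889372 per library, and the 37 members together held 63602 to 109530 of them. RPS19 itself had 27124 to 30731 counts in the siOTP libraries and 830 to 1159 in the siRPS19 ones (log2 fold change -5.14 ± 0.09 SE, edgeR adjusted p = 4.98e-12). The share of counted reads that hit no gene was 3.39% to 3.85% with siOTP and 5.13% to 6.36% with siRPS19. All 8 markers of A549 or lung epithelium had at least 10 counts in every library, and their summed level was 17183 to 18244 CPM with siOTP and 10743 to 11675 CPM with siRPS19. Within that list KRT19 was 6.85-fold higher in siRPS19, and AKR1B10 and KRT18 were 5.17-fold and 2.63-fold lower. CD3E had none and PTPRC at most 2 counts in any library, while CD14 had 29 to 44 counts in siOTP and 46 to 68 in siRPS19. Summed leucocyte marker levels, nearly all CD14, were 1.49 to 2.28 CPM in siOTP and 1.85 to 2.90 in siRPS19. The 2 endothelial markers found in the annotation, of 3 listed, summed to at most 0.101 CPM in siOTP and 0.304 in siRPS19. Fibroblast markers, mostly COL1A1, summed to at least 35.0 CPM in each siOTP library and at most 20.5 in each siRPS19 library. Within that list COL1A1 and COL3A1 were lower in siRPS19, and PDGFRB, with at most 19 counts in any library, was 3.79-fold higher. The part of these marker shifts in the results was not tested.

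Most synthetase mRNAs were lower after siRNA against RPS19, and the cytosolic ones more uniformly than the mitochondrial ones. Of 37 members, 29 fell, 3 rose and 5 did not pass the test (edgeR's quasi-likelihood test, adjusted over 17171 genes, threshold 0.05). Across all genes tested 78.3% were called in either direction, 38.9% lower and 39.5% higher, against 78.4% lower and 8.11% higher among the members. Of the 21 cytosolic members 19 fell and 1 rose, and of the 16 mitochondrial members 10 fell and 2 rose. The median log2 fold change was -0.76 for cytosolic and -0.32 for mitochondrial members, beside 0.02 over all genes tested. The libraries of both groups did not overlap for 20 cytosolic and 12 mitochondrial members, with 79.7% of all genes tested doing the same. The compartments also differed in level. In siOTP, mitochondrial members other than IARS2 averaged at most 80.2 CPM (EARS2), and cytosolic members other than TARSL2 at least 79.3 CPM (CARS). The part of level in the difference between compartments was not tested. No test of the lists was made, since the members were chosen with earlier results known.

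Directions are relative to TMM scaling, which centres the groups on each other. When libraries were scaled by their totals instead, the median log2 fold change over all genes moved up by 0.29, and the split over all genes turned from 6778 higher and 6673 lower (50.4% higher) to 9114 and 4734 (65.8% higher). On that scale 19 cytosolic members were still lower and 2 higher, while the mitochondrial members divided into 7 lower and 6 higher, with medians of -0.47 and -0.03.

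**Figure D1:**
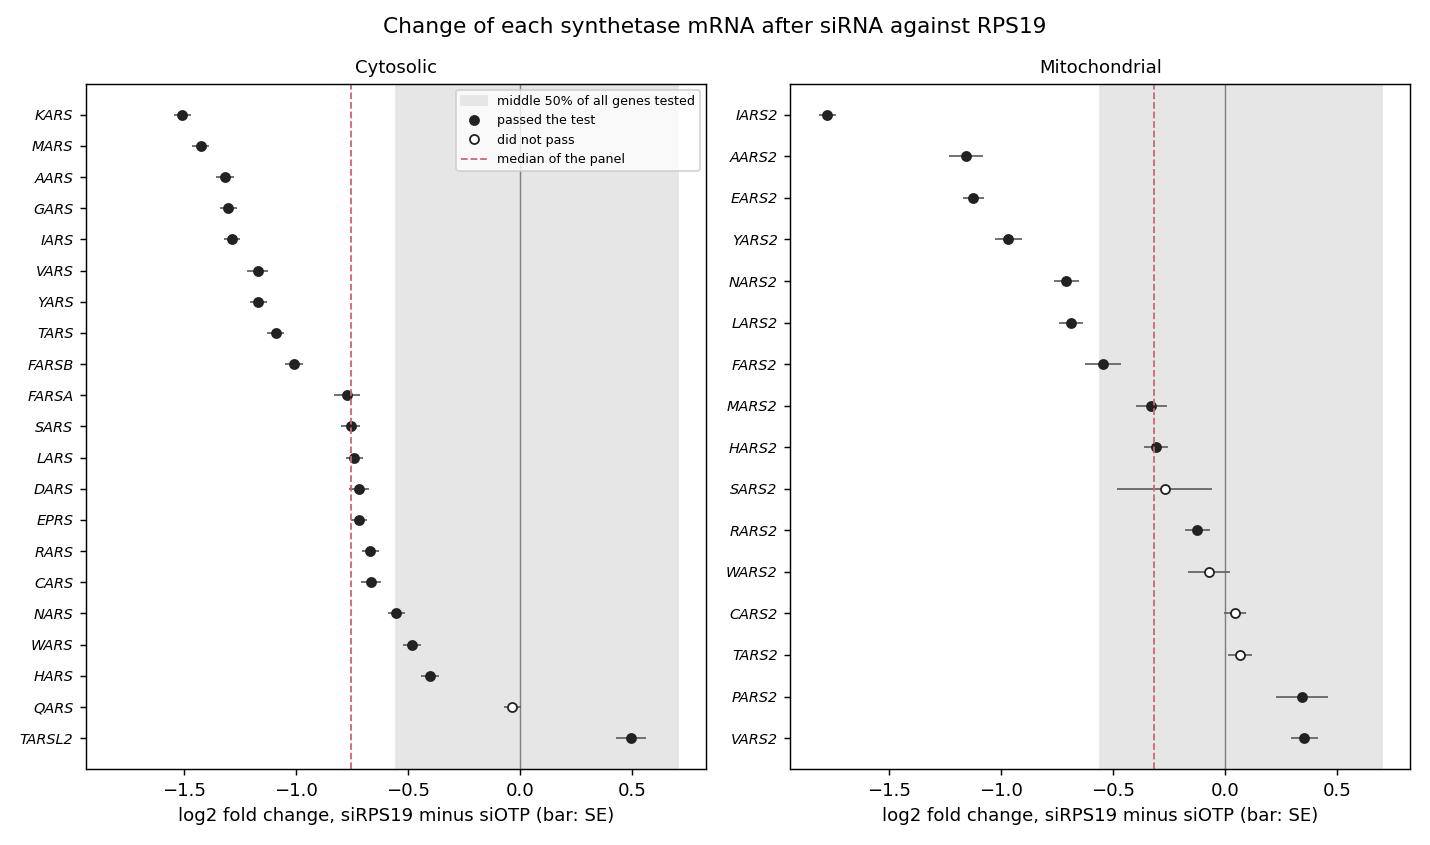
Log2 fold change of each member (siRPS19 minus siOTP, bars show the SE, 3 libraries per group), cytosolic genes on the left and mitochondrial ones on the right, with grey marking the middle 50% of all genes tested. The cytosolic genes lie to the left with QARS and TARSL2 apart, and the mitochondrial genes spread from IARS2 at -1.77 to VARS2 at 0.36.

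By level per transcript length, 5 genes led the control libraries. Values here are RPKM computed for each library from its counts, TMM factors and the authors' transcript length. IARS2 was highest at 86.6 ± 0.974 RPKM, followed by AARS at 82.0 ± 1.55, KARS at 74.6 ± 0.551, IARS at 68.1 ± 0.40 and NARS at 65.0 ± 0.926 (SD, n = 3 each, siOTP). GARS at 61.6 ± 1.18 and EPRS at 61.0 ± 0.579 RPKM lay within their spread of each other. Apart from IARS2, no mitochondrial enzyme exceeded the 20.4 ± 0.513 RPKM of YARS2. At the low end stood PARS2 at 2.58 ± 0.0498, WARS2 at 2.78 ± 0.226 and SARS2 at 0.558 ± 0.00221 RPKM.

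In siRPS19 the order changed. NARS was highest at 44.3 ± 1.13 RPKM, ahead of EPRS at 37.0 ± 1.04, AARS at 32.9 ± 0.790 and QARS at 31.8 ± 0.654 (SD, n = 3 each). QARS moved from rank 13 of the 37 to rank 4, and IARS2 from rank 1 to rank 9. The AARS and QARS libraries of siRPS19 overlapped (32.3 to 33.8 against 31.4 to 32.6 RPKM). The authors' lengths reach 10460 bases for CARS2 and 10037 for CARS, so the RPKM of such genes depends on which exons the length includes.

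**Figure D2:**
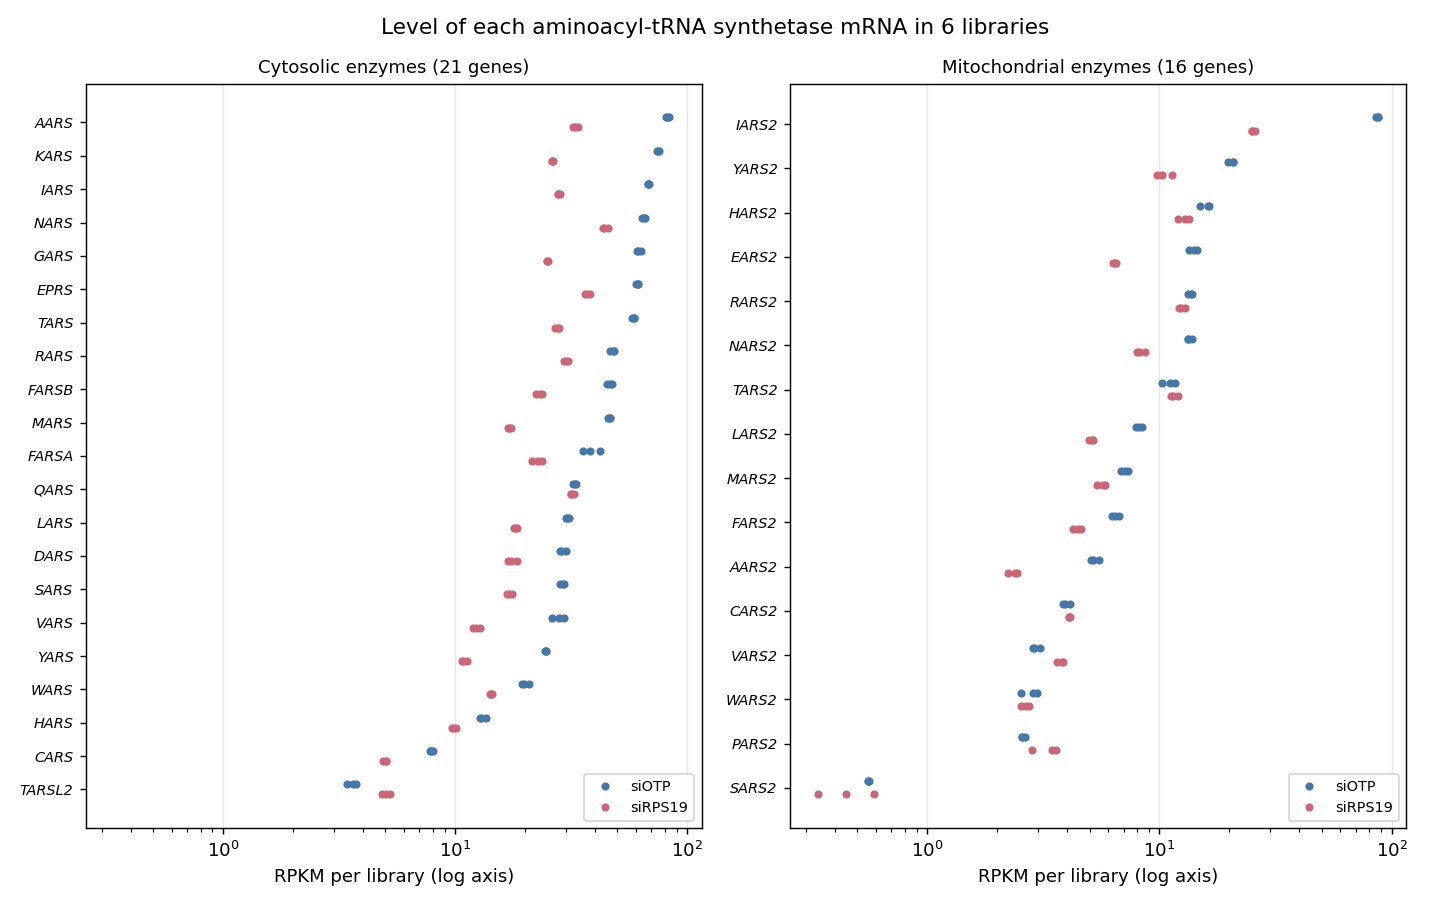
RPKM of every member in each of the 6 libraries on a log axis, cytosolic and mitochondrial genes in separate panels ordered by their mean in siOTP (blue siOTP, red siRPS19). Replicates lie close together, and IARS2 moves from 86.6 to 25.3 RPKM while QARS stays near 32.

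The deepest falls among cytosolic enzymes were in lysyl-, methionyl-, alanyl-, glycyl- and isoleucyl-tRNA synthetase genes. KARS (ENSG00000065427, chromosome 16, 75661622 to 75682541, hg19) stood at 282, 284 and 287 CPM in siOTP and at 99.6, 101 and 99.7 CPM in siRPS19. All siRPS19 libraries were far below all siOTP libraries, a 2.84-fold fall (log2 fold change -1.51 ± 0.04 SE, edgeR adjusted p = 1.17e-18).

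MARS (ENSG00000166986, chromosome 12, 57869228 to 57911352), which charges both initiator and elongator methionine tRNA, fell 2.69-fold. It had 325, 321 and 325 CPM in siOTP and 120, 118 and 123 CPM in siRPS19, and the groups did not overlap. MARS shares 982 bases of its span with DDIT3 on the opposite strand, a stress-induced transcription factor gene whose own mean count was 96.3 in siOTP and 164 in siRPS19. Whether the counting separated reads by strand is not given in the sources used here, so the counts of both genes are uncertain to that extent.

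AARS (ENSG00000090861, chromosome 16, 70286198 to 70323446), the alanine enzyme, went from 363, 367 and 376 CPM to 145, 147 and 152 CPM. GARS (ENSG00000106105, chromosome 7, 30634297 to 30673649), whose single gene provides glycine enzyme to cytosol and mitochondria, went from 261, 255 and 252 CPM to 104, 103 and 103 CPM. IARS (ENSG00000196305, chromosome 9, 94972489 to 95056038), the isoleucine enzyme and the cytosolic gene with most counts, went from 507, 502 and 502 CPM to 210, 205 and 204 CPM. Each of these 3 fell between 2.44-fold and 2.49-fold with groups well apart.

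The valine, tyrosine and threonine enzymes and one phenylalanine subunit also fell past 2-fold under TMM scaling. VARS fell 2.25-fold (171, 158 and 180 CPM to 75.1, 72.9 and 77.6 CPM). YARS likewise fell 2.25-fold (201, 202 and 201 CPM to 89.0, 92.1 and 87.8 CPM). TARS fell 2.13-fold (331, 337 and 337 CPM to 153, 159 and 160 CPM). The cytosolic phenylalanine enzyme is built from the products of FARSB and FARSA, and these fell unequally, by -1.01 ± 0.04 and -0.77 ± 0.06 on the log2 scale (SE). With library totals VARS, TARS and FARSB stayed short of 2-fold, at log2 fold changes of -0.89, -0.81 and -0.72.

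SARS, LARS, DARS, EPRS, RARS and CARS, the enzyme genes for serine, leucine, aspartate, glutamate with proline, arginine and cysteine, fell by similar amounts, from -0.76 to -0.67 on the log2 scale. NARS, for asparagine, stood at -0.55. WARS, the tryptophan enzyme and an interferon-inducible gene, and HARS, for histidine, had the smallest falls at -0.48 ± 0.04 and -0.40 ± 0.04 (SE). WARS had 123, 125 and 132 CPM in siOTP and 90.1, 91.5 and 91.0 CPM in siRPS19.

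QARS and TARSL2 differed from the other cytosolic genes. QARS (ENSG00000172053, chromosome 3, 49133365 to 49142553), the glutamine enzyme, had 147, 150 and 151 CPM in siOTP and 144, 144 and 149 CPM in siRPS19. The groups overlapped, and the log2 fold change of -0.04 ± 0.04 (SE) did not pass (edgeR adjusted p = 0.38). With library totals its log2 fold change was 0.25 and with upper-quartile factors 0.14, both of which passed in edgeR (adjusted p = 8.94e-06 and 0.0024). TARSL2 (ENSG00000185418, chromosome 15, 102193801 to 102264807) had 15.7, 17.1 and 16.6 CPM in siOTP and 23.2, 24.0 and 22.2 CPM in siRPS19. It rose 1.41-fold (log2 fold change 0.49 ± 0.07 SE, edgeR adjusted p = 1.58e-06), while TARS, its better expressed relative, fell.

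The 8 enzymes of the multisynthetase complex did not move as a block. KARS, MARS and IARS fell past 2-fold, LARS, DARS, EPRS and RARS fell between 1.59-fold and 1.67-fold, and QARS did not pass. Their median log2 fold change was -0.73, beside -0.77 for the 13 cytosolic members outside the complex. The scaffold genes of the complex all fell, with log2 fold changes of -0.77 for AIMP1, -0.68 for AIMP2 and -1.25 for EEF1E1. EEF1E1 had 9.88, 11.0 and 12.1 CPM in siOTP and 4.27, 5.16 and 4.51 CPM in siRPS19.

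Synthetase genes known as ATF4 targets were lower throughout. Of the 12 on that list all fell, with a median log2 fold change of -0.92, and of the 9 other cytosolic members 7 fell and 1 rose, with a median of -0.72. The element bound by ATF4 together with a C/EBP partner was searched as TGATGNAA on both strands in RefSeq promoters (GRCh38.p14, 250 bases before to 50 after a start), which matched 30 of the 37 members. A gene was counted where any of its listed promoters held the motif. It was found for 7 of the 10 matched genes of the ATF4 list, for 1 of the 20 others, and in 3.62% of all 35116 promoters of that length. That last share counts single promoters and not genes, so it is not on the same unit. The windows are shown to let the matches be compared: 6 of the 8 hold TTGCATCA or its reverse complement TGATGCAA, and GARS and YARS2 differ from it.

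Each window has 30 bases, 5′ to 3′ on the gene's own strand, with the motif in capitals.
AARS (chr16:70289675-70289704, minus strand): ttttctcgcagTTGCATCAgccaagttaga
CARS (chr11:3057407-3057436, minus strand): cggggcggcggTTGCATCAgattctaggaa
IARS (chr9:92293692-92293721, minus strand): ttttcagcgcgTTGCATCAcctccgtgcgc
MARS (chr12:57488053-57488082, plus strand): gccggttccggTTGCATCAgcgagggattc
TARS (chr5:33440956-33440985, plus strand): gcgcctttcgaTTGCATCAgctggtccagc
NARS (chr18:57621804-57621833, minus strand): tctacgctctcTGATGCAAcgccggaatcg
GARS (chr7:30594834-30594863, plus strand): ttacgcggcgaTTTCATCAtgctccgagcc
YARS2 (chr12:32756076-32756105, minus strand): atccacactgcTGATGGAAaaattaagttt

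The motif lay near the start in CARS, IARS, MARS, TARS, NARS and GARS (from base -33 in GARS to base 22 in NARS), and further upstream in AARS (base -187) and YARS2 (base -197), counting the first transcribed base as 1 and the base before it as -1. The 8 genes with the motif all fell, with log2 fold changes of -1.43 to -0.55 and a median of -1.19. The 22 matched members without it had a median of -0.51, with 16 lower and 1 higher. AARS2, DARS, LARS, TARSL2, VARS, VARS2 and YARS were not matched and are in neither set. Their log2 fold changes ran from -1.17 in VARS to 0.49 in TARSL2, and LARS and YARS are on the ATF4 list. Within the cytosolic set all 7 genes with the motif fell, as did 8 of the 9 without, beside 38.9% lower over all genes tested. The medians there were -1.29 with the motif and -0.72 without. KARS, which fell most among cytosolic genes, was among those without it in this window. Other motifs searched in the same promoters were the E-box (CACGTG) and the core of the NRF1 element (GCATGCGC). These were found for 4 and 2 of the 30 matched members, and in 7.26% and 3.05% of all promoters. A match to letters describes the window only and shows no binding.

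ATF4 mRNA was lower, at 323, 320 and 338 CPM in siOTP and 102, 108 and 111 CPM in siRPS19 (log2 fold change -1.61 ± 0.04 SE). ASNS, the asparagine synthetase gene and a classical ATF4 target, fell 2.77-fold. The gene of the kinase GCN2, EIF2AK4, rose from 97.5, 96.5 and 87.0 CPM to 132, 135 and 130 CPM, while its activator's gene GCN1L1 fell 1.69-fold and the gene of its substrate, EIF2S1, fell 2.42-fold. Of these 5 genes of the response to uncharged tRNA, 4 fell and 1 rose, beside 38.9% lower and 39.5% higher over all genes tested. The activity of GCN2 and the protein and activity of ATF4 were not measured. Whether the level of ATF4 mRNA bears on the synthetase mRNAs was not tested.

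Among mitochondrial enzymes IARS2 stood apart. IARS2 (ENSG00000067704, chromosome 1, 220267444 to 220321380), the mitochondrial isoleucine enzyme, had 356, 363 and 363 CPM in siOTP and 104, 104 and 107 CPM in siRPS19. Its 3.42-fold fall (log2 fold change -1.77 ± 0.04 SE, edgeR adjusted p = 1.11e-19) had the largest size among the 37 members, and 4.03% of all genes tested had a log2 fold change as low or lower. The cytosolic EPRS gene lies 47444 bases from IARS2 on the opposite strand, with the starts of both genes facing each other, and fell 1.65-fold.

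The alanine, glutamate and tyrosine enzymes of mitochondria followed. AARS2 fell 2.23-fold, from 22.3, 21.7 and 23.6 CPM to 10.3, 9.58 and 10.5 CPM. EARS2 fell 2.18-fold, from 80.8, 76.9 and 82.8 CPM to 37.3, 36.2 and 37.0 CPM. With library totals the log2 fold changes of AARS2 and EARS2 were -0.87 and -0.84, short of 2-fold. YARS2 fell 1.95-fold, from 44.7, 42.6 and 44.5 CPM to 21.0, 24.4 and 22.1 CPM. EARS2 overlaps UBFD1 and YARS2 overlaps DNM1L on the opposite strand, genes with mean counts of 3666 and 3495 in siOTP.

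NARS2, LARS2 and FARS2 fell by 0.71, 0.69 and 0.54 on the log2 scale. MARS2 and HARS2 fell by 0.33 and 0.31, and with library totals neither passed (log2 fold changes of -0.04 and -0.02). RARS2 had 35.3, 33.7 and 34.8 CPM in siOTP and 32.8, 31.7 and 30.9 CPM in siRPS19, and its difference barely passed (log2 fold change -0.12 ± 0.05 SE, edgeR adjusted p = 0.048). It no longer passed when any library but siOTP replicate 2 was left out (edgeR adjusted p = 0.058 to 0.21 over those 5 fits), nor with RLE size factors (0.053), and with library totals it was higher (0.16).

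Only VARS2 and PARS2 rose among mitochondrial members under TMM scaling. VARS2 (ENSG00000137411, chromosome 6, 30876019 to 30894236), the valine enzyme, rose from 25.8, 24.3 and 24.2 CPM to 32.1, 30.6 and 32.4 CPM (log2 fold change 0.36 ± 0.06 SE, edgeR adjusted p = 1.46e-05). The GTF2H4 gene model overlaps VARS2 by 5865 bases on the same strand, with mean counts of 1.0 in siOTP and 1.3 in siRPS19. How many VARS2 reads went uncounted there was not tested. PARS2 (chromosome 1, 55222571 to 55230187), the proline enzyme, rose from at most 6.19 CPM in the siOTP libraries to 6.62, 8.07 and 8.44 CPM (log2 fold change 0.35 ± 0.12 SE, edgeR adjusted p = 0.011). Its siRPS19 libraries were uneven, and without siRPS19 replicate 3 the value was 0.29 (edgeR adjusted p = 0.054). DESeq2 gave adjusted p = 0.091 for PARS2. The annotation also lists 9 copies of VARS and VARS2 on alternative haplotypes of chromosome 6, and none of them had a count.

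CARS2, TARS2, WARS2 and SARS2 did not pass, at log2 fold changes of 0.05, 0.07, -0.07 and -0.27. CARS2 had 40.1, 41.2 and 42.9 CPM in siOTP and 43.2, 42.5 and 42.6 CPM in siRPS19, and TARS2 47.0, 44.6 and 41.4 against 45.3, 45.9 and 48.3 CPM, so the groups overlapped in both. With library totals CARS2 and TARS2 were higher and passed (0.33 and 0.35), as did WARS2 (0.22).

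SARS2 (chromosome 19, 39405906 to 39440495) had only 40 to 43 counts per library in siOTP and 29 to 57 in siRPS19. Another gene model on the same strand, CTC-360G5.8, covers 34452 of the 34590 bases that SARS2 spans and had no count, and FBXO17 overlaps it on the same strand with a mean of 2309 counts in siOTP. Ambiguous reads, which fell in no gene's count, made up 7.50% to 8.24% of all entries in the 6 libraries, and how many belong to SARS2 was not tested. Its level and its change are therefore uncertain. In all, 28 members overlap another annotated gene, and for 12 of them that gene had a mean of at least 50 counts in a group.

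HARS and HARS2 lie head to head, and both fell. Their starts in the RefSeq promoter table are 85 bases apart (GRCh38.p14), and in the authors' hg19 gene models the spans overlap by 599 bases. HARS2 also overlaps ZMAT2 by 625 bases on the same strand, a gene with mean counts of 2458 in siOTP and 1901 in siRPS19. HARS overlaps WDR55 by 952 bases on the opposite strand. How many reads of HARS and HARS2 went uncounted there was not tested. HARS went from 109, 114 and 108 CPM to 84.9, 81.4 and 83.7 CPM, and HARS2 from 55.4, 55.7 and 50.9 CPM to 43.9, 41.1 and 46.1 CPM. Their log2 count ratio averaged 1.03 ± 0.05 with siOTP and 0.93 ± 0.06 with siRPS19 (SD over 3 libraries), so the groups overlapped (change -0.10; exact permutation test, two-sided, p = 0.2, where 0.1 is the smallest possible). With library totals HARS was still lower (log2 fold change -0.12, edgeR adjusted p = 0.017) and HARS2 did not pass.

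The ratio of a cytosolic gene to its mitochondrial partner does not depend on how libraries are scaled. In 13 of 16 partner pairs the mean log2 ratio was lower in siRPS19, with groups that did not overlap in 11, and in 3 it was higher with groups apart. Among single genes tested, 79.7% also had groups that did not overlap. The share for ratios of other gene pairs was not computed, so these counts have no background of their own kind. The exact two-sided permutation test gave p = 0.1, the smallest that 3 against 3 libraries allow, for those 14 pairs (0.114 after adjustment over 16 pairs). Groups that do not overlap always give this p, so it adds nothing to the count. SARS over SARS2, among the 11, rests on 29 to 57 counts of SARS2. Its log2 ratio reached 5.65 in siRPS19, close to the lowest siOTP value of 5.69. The phenylalanine pair used FARSA with FARS2 and left out FARSB.

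The largest shift was in the valine pair. The log2 ratio of VARS to VARS2 was 2.72, 2.70 and 2.89 in siOTP and 1.23, 1.25 and 1.26 in siRPS19, a difference of -1.53. The overlap of VARS2 with GTF2H4, given above, limits this ratio as well. TARS over TARS2 differed by -1.16, MARS over MARS2 by -1.10, EPRS over PARS2 by -1.06, CARS over CARS2 by -0.71 and RARS over RARS2 by -0.55. In these 6 pairs the cytosolic message fell, while among the mitochondrial ones MARS2 and RARS2 fell, TARS2 and CARS2 did not pass and VARS2 and PARS2 rose.

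The 3 pairs in the opposite direction were IARS over IARS2 (0.49), EPRS over EARS2 (0.40) and NARS over NARS2 (0.15). IARS over IARS2 rose from log2 ratios of 0.51, 0.47 and 0.47 to 1.01, 0.98 and 0.93. LARS over LARS2 had overlapping groups, with a mean log2 ratio of 2.48 ± 0.05 under siOTP against 2.43 ± 0.02 under siRPS19 (SD over 3 libraries; exact permutation test, two-sided, p = 0.3), and AARS over AARS2 differed by -0.16. EPRS encodes the glutamate and proline enzymes in 1 protein, so its 2 mitochondrial partners, EARS2 and PARS2, share the same cytosolic values.

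**Figure D3:**
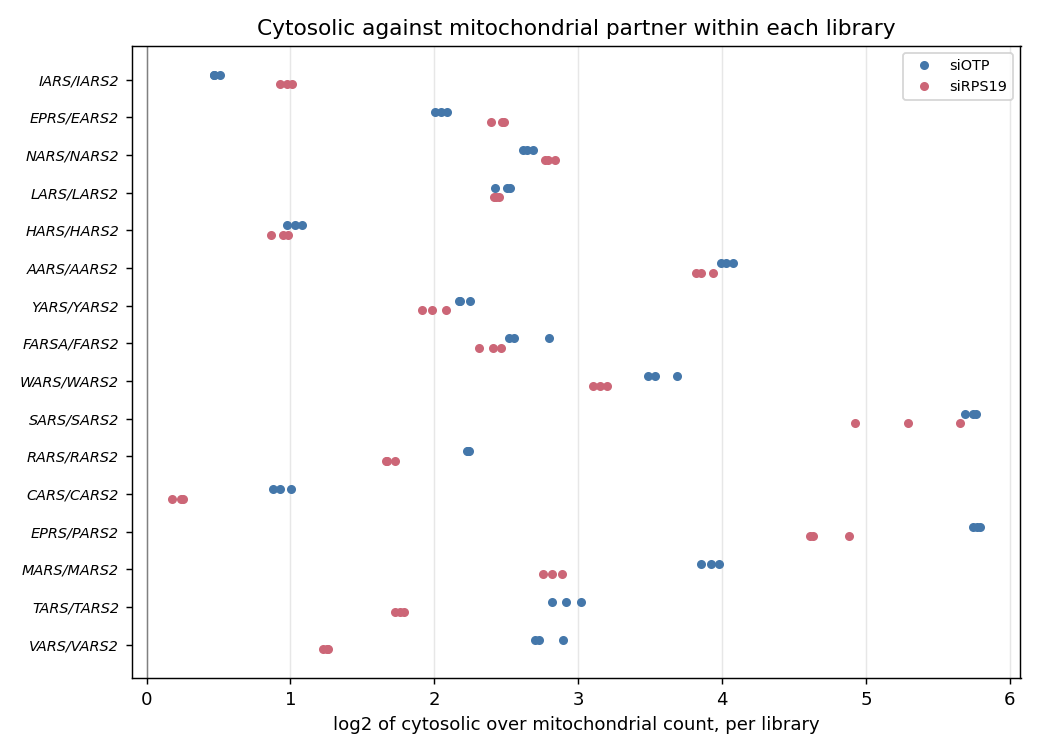
Log2 ratio of cytosolic to mitochondrial counts for each of 16 partner pairs in each library (blue siOTP, red siRPS19). All red points lie left of the blue ones in 11 pairs, farthest in VARS/VARS2, and right of them in the 3 uppermost; in HARS/HARS2 and LARS/LARS2 they overlap.

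Summed over members, the cytosolic enzymes fell from 4412 ± 25.9 to 2295 ± 16.5 CPM and the mitochondrial ones from 848 ± 4.01 to 472 ± 7.46 CPM (SD, n = 3 each), which is 1.92-fold and 1.80-fold. The mitochondrial share of all synthetase counts was 16.1%, 16.1% and 16.1% in siOTP and 17.0%, 16.9% and 17.2% in siRPS19. IARS2 carried much of that sum: it held 42.0%, 42.9% and 42.5% of the counts on mitochondrial synthetases in siOTP and 22.3%, 22.3% and 22.4% in siRPS19. With IARS2 left out, the mitochondrial share rose from 10.0%, 9.89% and 9.94% to 13.7%, 13.7% and 13.9%. The groups did not overlap in any of these shares. Leaving out IARS2 was chosen after its values were seen.

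**Figure D4:**
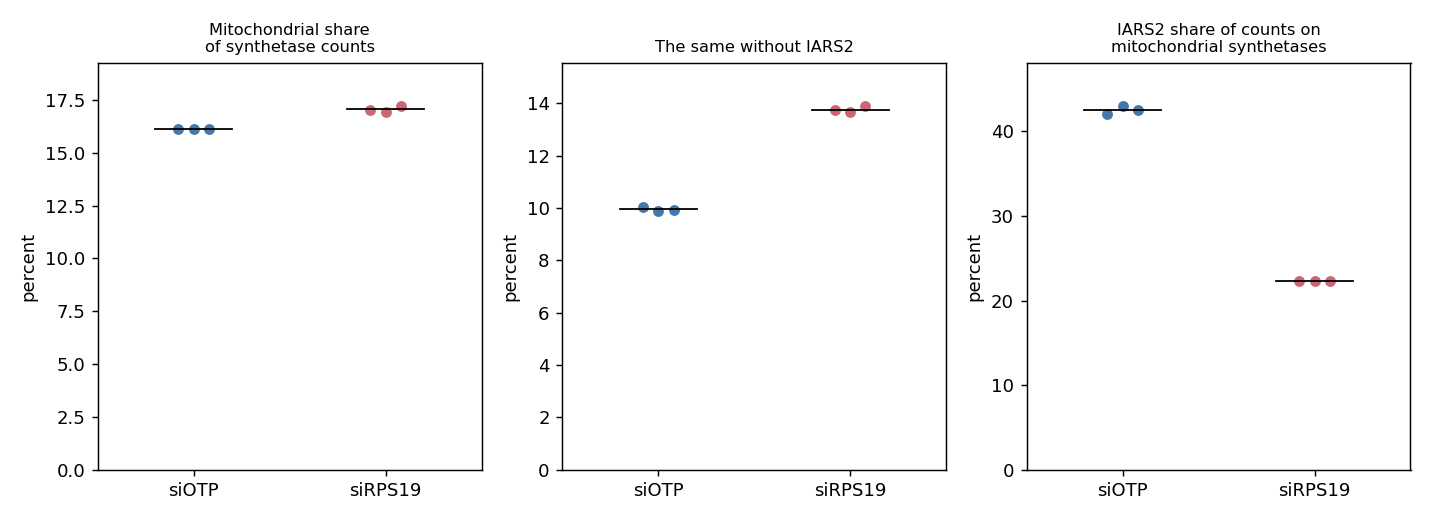
Share of synthetase counts on mitochondrial members with and without IARS2, and the share of IARS2 among mitochondrial members, for each library (points) with the group mean (line). The total share moves from 16.1% to 17.0%, the share without IARS2 from 9.95% to 13.8%, and the IARS2 share from 42.5% to 22.3%.

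Catalytic domains of synthetases come in 2 unrelated folds, class I and class II. EPRS, which holds a glutamate enzyme of class I and a proline enzyme of class II, was counted in class I. Class I genes had 15 of 19 lower and 1 higher, with a median log2 fold change of -0.69, and class II genes 14 of 18 lower and 2 higher, with a median of -0.71. Among cytosolic members the medians were -0.73 for class I and -0.77 for class II, and among mitochondrial members -0.33 and -0.31.

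Other genes listed for tRNA charging were mostly lower as well. Of 17 listed, 16 could be tested, of which 11 fell and 1 rose, with a median log2 fold change of -0.51. XPOT, the exporter that carries tRNA out of the nucleus, fell 2.68-fold, from 345, 352 and 354 CPM to 132, 133 and 128 CPM. TUFM, the mitochondrial elongation factor that receives charged tRNA, and TSFM, its exchange factor, fell by 0.71 and 0.80 on the log2 scale. EEF1A1, which brings charged tRNA to the cytosolic ribosome, fell by 0.78, and EEF1B2 and EEF1D, subunits of its exchange factor, by 0.65 and 0.42. EEF1G, which was not tested, had 1 count over the 6 libraries, and a listed gene model, MIR3654, covers 15327 of its 15329 bases.

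The amidotransferase that makes mitochondrial glutaminyl-tRNA has the subunit genes QRSL1, GATB and GATC. QRSL1 and GATC fell by 0.62 and 0.53 on the log2 scale, and GATB, at -0.12 ± 0.07 (SE), did not pass (edgeR adjusted p = 0.099). MTFMT, which formylates the mitochondrial initiator tRNA, and TRNT1, which adds the CCA end to tRNAs, fell by 0.45 and 0.50. DTD1, a deacylase that removes D-amino acids from tRNA, fell by 0.79, and its relative DTD2 was at -0.01. SEPSECS, the enzyme that completes selenocysteine on its tRNA, rose from 8.30, 9.52 and 8.15 CPM to 11.2, 10.6 and 12.0 CPM (log2 fold change 0.38 ± 0.10 SE, edgeR adjusted p = 0.0013). PSTK, which acts before it, and AARSD1 did not pass, at 0.20 and 0.39. Gene models on the same strand cover all 13973 bases of AARSD1 (PTGES3L-AARSD1) and 11406 of the 11475 bases of DTD2 (RP11-176H8.1). The levels and changes of AARSD1 and DTD2 are therefore uncertain.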

How the data were processed

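RNA from 6 libraries of A549 cells was analysed, 3 per group. TopHat2 2.0.8b, HTSeq, DESeq and R 3.0.2 are named, with the hg19 build, in the submitters' processing notes. How HTSeq treated strand and overlaps, and which annotation release it read, is not given in the sources used here. Whole-number read counts per Ensembl gene were deposited for each library. The authors also deposited an RPKM table with 1 value per group, together with mean counts plus 1 and transcript lengths, used here for lengths, coordinates and an alternative. The merged count tables equalled the library files and were not used. Genes were filtered with filterByExpr (minimum count 10, minimum total 15), scaled with TMM and tested with edgeR 4.0.16 (robust quasi-likelihood, R 4.3.3), with Benjamini-Hochberg adjustment over 17171 genes and a threshold of 0.05. CPM and RPKM by library use TMM factors. Each standard error was derived from the log2 fold change and the F value. The test was also run on simulated counts with changes in both directions, at a single fixed dispersion. Far fewer genes were changed there than were called here, so that run does not bear on the choice of scaling. Pair ratios used a prior count of 0.5 and an exact permutation test. Same-numbered replicates carry the same date in the labels, which was taken as pairing them; what the date marks is not stated. Deviations of same-numbered libraries correlated at 0.044, -0.078 and 0.038 over 17171 genes. Replicates differed beyond sampling noise (chi-square per degree of freedom 4.40 to 16.6 between replicates). The settings also tried were RLE, upper-quartile and library-total scaling, no filter, a filter at a mean of 1 CPM, limma-voom (limma 3.58.1), DESeq2 1.42.0, a replicate block and leaving out each library. Every member could be named, and genes of the lists for tRNA charging. The members and lists were chosen with earlier results of these data known. The labels call the replicates biological and name no separate cultures, so p-values measure the spread between these libraries. A marker gene of the leucocyte list is not reported here.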

Additional observations from a re-analysis of the deposited data

How the results depend on the processing

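Of 37 members, 28 kept their direction and their side of the threshold under all 14 alternatives with a test, 26 of them lower and 2 higher. The exceptions were CARS2, HARS2, MARS2, PARS2, QARS, RARS2, SARS2, TARS2 and WARS2. Scaling mattered most. With upper-quartile factors 6 members were higher (2 cytosolic, 4 mitochondrial), and with library totals 8 (2 and 6), against 3 (1 and 2). DESeq2 called 1 mitochondrial member higher, and leaving out single libraries gave 1 to 2. The cytosolic median of -0.76 became -0.58 with upper-quartile factors, -0.47 with library totals, -0.81 with no filter, -0.71 with a filter at a mean of 1 CPM and -0.78 with DESeq2, and ran from -0.79 to -0.72 with a library left out. The mitochondrial median of -0.32 became -0.14 under upper-quartile and -0.031 under library-total scaling. The median over all genes moved by 0.17 and 0.29 in the same settings. Directions that turned were QARS (0.14 with upper-quartile factors, 0.25 with library totals, 0.012 with the 1 CPM filter), RARS2 (0.051 and 0.16 in the first 2 of these), WARS2 (0.10 and 0.22 in the same 2), SARS2 (0.017 with library totals) and CARS2 (-0.0042 with no filter). The authors' RPKM, 1 value per group and no test, also turned QARS (0.25), RARS2 (0.16) and WARS2 (0.22). With the replicate block the counts over members (29 lower, 3 higher) and both medians (-0.76 and -0.32) were the same, and no member's call changed. Partner ratios kept their direction with a prior count of 2 and without any 1 library. Depth limits SARS2 most, at 29 to 57 counts per library.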
